A study of Mus musculus with 35 samples.

Results

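The genes of the DNA methylation machinery described here are the maintenance methyltransferase Dnmt1 and its partner Uhrf1, the de novo methyltransferases Dnmt3a and Dnmt3b with their cofactor Dnmt3l, and the methyl-CpG-binding domain genes Mbd2 and Mbd3. They were chosen by name. The 7 genes have 11 of the 41174 gene probes of the array, and all 11 probes passed the filter on dim signals. The second Mbd2 probe passed only through 3F-PaS-iPS clones and primary cells, and was not above background on either ES array. Genes with several probes are represented by their brightest one, averaged over the 32 arrays of clones and ES cells, and other probes are given beside it where they differ.

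Methylation of cytosine at CpG sites is copied after each round of DNA replication. Uhrf1 recognises the hemimethylated site and brings Dnmt1 to it. Dnmt3a and Dnmt3b set new marks, and the catalytically inactive Dnmt3l stimulates them and is best known from germ cells and pluripotent stem cells. Mbd2 binds methylated CpG sites and acts through the NuRD complex, a histone deacetylase and chromatin remodelling complex of which Mbd3 is a core subunit. Methyl marks on promoters such as that of Nanog are removed when somatic cells become pluripotent, so the levels of these genes are of interest in induced pluripotent stem (iPS) cells.

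RNA of 30 mouse iPS clones, 2 ES cell lines and 3 primary cell samples was measured with 1 Agilent 1-colour array each. The clones came from 6-week-old mice with a Nanog-GFP-Puro reporter and were made by retroviral transduction of Oct3/4, Sox2, Klf4 and c-Myc (4F) or of the same factors without c-Myc (3F). Sources were PaS cells (mesenchymal stem cells of bone marrow, sorted as CD45- Ter119- PDGFRa+ Sca-1+), OP cells (osteo-progenitors, sorted as CD45- Ter119- PDGFRa- Sca-1-) and tail tip fibroblasts (TTF), with 5 clones for each source and factor set. Colonies with GFP and without the DsRed of the transduction control were picked and kept on mitomycin-C-treated SNL feeder cells, a line of fibroblasts, with LIF. The ES arrays are of the lines EB-3 and RF8. Each source has 1 array of its own. By the methods, TTF are a passaged culture of cells that had grown out of pieces of tail, while it was not given in the sources used here whether the PaS and OP cells on the arrays were freshly sorted or cultured. Each clone is a separate array, but whether clones came from separate infections was not given in the sources used here, so p-values measure the spread between these clones. In RNA of whole cultures, fewer cells of a type and less RNA per cell cannot be told apart.

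Levels are given as log2 of the background-subtracted intensity over the 75th percentile of the array, so 0 is that percentile. A level is not comparable between probes. Differences are on the log2 scale, and a gene was called where the Benjamini-Hochberg adjusted p of limma, over all probes tested, was under 0.05. The share of probes well above background was 56.6% to 65.7% on clone arrays and 63.0% to 71.1% on the others. All clone arrays were scanned in 1 session on slides 1 to 8, EB-3 and the primary cells on slide 9 in a second session, and RF8 on slide 10 in another, so that cell type and scan session cannot be told apart where clones are compared with ES or primary cells. The OP array did not lack the genes its sort excludes: the log2 level of Pdgfra was 1.58 on OP, 0.98 on PaS and 0.59 on TTF, and that of Ly6a (Sca-1) was 3.54 on OP and 5.58 on PaS. Not all marker lists followed the labels. The summed log2 level of 4 osteo-progenitor genes was 5.53 on OP, 1.40 on PaS and -1.19 on TTF. That of both PaS sort genes was 5.64 on PaS and 3.87 on OP, although Pdgfra alone was higher on OP. That of 12 fibroblast genes was lowest on the fibroblast sample, with 8.43 on TTF, 9.90 on PaS and 10.59 on OP. For 4 blood genes it was 6.51 on TTF, -1.88 on PaS and -2.86 on OP. Ptprc (CD45) stood at 4.14 on the TTF array and at -5.74 on the PaS array. Of 12 fibroblast genes, 11 or 12 were above background on every clone array, 8 on EB-3 and 12 on RF8, and their summed log2 level was at least 7.23 in clones (median 8.19), 4.04 on EB-3 and 5.90 on RF8. Of 8 pluripotency genes all were above background on the ES arrays and in all clones except 4F-OP-iPS #1 and #3 and 4F-TTF-iPS #1, which had 5 of 8. These 3 clones and 4F-OP-iPS #2 are low in Nanog (-8.24 to -3.30) and Sox2 (-8.21 to -2.04), where the other clones had a log2 Nanog level of -0.89 to 3.68. For the 7 genes, values without these 4 clones are given for the results that they change, beside them or in a later paragraph.

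Promoter sequence is shown for the maintenance pair Dnmt1 and Uhrf1, whose levels moved together in these clones, and for Dnmt3a and Dnmt3l. The windows are the 250 bases before each start annotated by RefSeq on GRCm38.p6, of which 6 of the 7 genes had 13. Letters of the E2F type (TTTGGCGC, TTTCGCGC, TTTCCCGC or TTTGCCGC, on both strands) and the E-box CACGTG, the preferred site of c-Myc, were looked up. Each line gives 30 bases 5′ to 3′ on the strand of the gene, with the matching letters in capitals. The stretches lie at chr9:20952824-20952853 on the minus strand (Dnmt1, 211 bases before the start), chr17:56304117-56304146 on the plus strand (Uhrf1, 177 bases), chr12:3891652-3891681 on the plus strand (Dnmt3a, 74 bases) and chr10:78049786-78049815 on the plus strand (Dnmt3l, 38 bases).
Dnmt1: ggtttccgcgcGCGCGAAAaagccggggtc
Uhrf1: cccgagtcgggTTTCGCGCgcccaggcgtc
Dnmt3a: tccagtggggccCACGTGacctggagttct
Dnmt3l: cactcctcccctCACGTGctgggctcctta
The E2F-type letters were in 2 of the 13 windows, those of Dnmt1 and Uhrf1, and in 1.86% of all 32851 windows. CACGTG was in 2 of the 13 windows and in 6.02% of all windows. A match is a description of the letters and no sign of binding, and several windows belong to 1 gene. CpG dinucleotides, the substrate of these enzymes, numbered 26, 7 and 2 in the windows of Dnmt1, 10 and 30 in those of Uhrf1, 38, 40 and 15 in those of Dnmt3a, 21 in that of Dnmt3b, 14 in that of Mbd3 and 5, 4 and 3 in those of Dnmt3l, against a median of 6 over all windows (quartiles 2 and 16).

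Primary cells differed from the clones derived from them in most of these genes: 6 of the 7 were called, 5 lower and Mbd2 higher in primary cells, where 59.0% of all 28300 probes tested were called (34.0% lower, 25.1% higher). By pooled log2 difference on the brightest probes, Dnmt3l, Dnmt3b and Dnmt3a were lowest relative to clones, but not in each primary sample. Against the mean of the clones, Uhrf1 was at -4.78 in OP cells, where Dnmt3b was at -4.58 and Dnmt3a at -3.37. In TTF cells Uhrf1 was at -1.26 and Dnmt3a at -1.03. Dnmt3b had a log2 level of -4.28 in PaS, -3.78 in OP and -3.93 in TTF cells, below all 30 clones (lowest -1.24, median 0.88, highest 2.63). The log2 difference was -4.80 (SE 0.43, adjusted p = 2.7e-10), or 27.8-fold. Dnmt3l was at -1.72 in PaS, -1.89 in OP and 0.83 in TTF cells, and at -1.61, 4.92 and 6.46 in the lowest, median and highest clone. Its log2 difference was -5.17 (SE 0.88, adjusted p = 1.27e-05), or 36.1-fold, and the groups overlapped, since 28 of 30 clones were above all 3 primary samples. The other two were 4F-OP-iPS #1 and #3. Without the 4 clones low in Nanog and Sox2 the lowest clone was at 2.60, so that the groups no longer overlapped, and the log2 difference was -5.79. It was -6.05 without the TTF array. Dnmt3a was at -3.57 in PaS, -2.91 in OP and -0.57 in TTF cells against a clone median of 0.36, a log2 difference of -2.81 (SE 0.45, adjusted p = 5.76e-06), which was -3.70 without the TTF array and -2.20 without the PaS array. Its other probes were called lower too, with log2 differences of -2.70 (chr12:3826602-3826661) and only -0.90 (chr12:3830965-3831024, adjusted p = 0.013), and on the latter the TTF array (-2.04) lay 0.54 above the mean of the clones, with PaS at -4.60 and OP at -3.78. On each probe TTF cells held more Dnmt3a than the sorted cells of bone marrow, with 1 array each and no test.

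Maintenance genes split the primary samples. Dnmt1 stood at 1.64 in PaS and 1.54 in TTF cells, at the low end of the range of the clones (1.04 to 3.01), and at -0.49 in OP cells. Of 30 clones, 28 lay above all primary samples, and the others were 3F-OP-iPS #1 (1.04) and 3F-TTF-iPS #4 (1.56). Uhrf1 followed the same order, with log2 levels of 1.91 in PaS, 1.19 in TTF and -2.32 in OP cells. Both genes were called lower in primary cells, with log2 differences of -1.39 for Dnmt1 (SE 0.26, adjusted p = 4.03e-05) and -2.19 for Uhrf1 (SE 0.41, adjusted p = 4.46e-05). The differences rested largely on the OP array: without it they were -0.70 for Dnmt1 and -0.90 for Uhrf1, and both were still called. Without the PaS array that of Uhrf1 was -3.02. The array of EB-3 ES cells lay on the same slide as the primary cells, and there Dnmt1 was 3.86-fold to 17.0-fold and Dnmt3b 182-fold to 258-fold higher in EB-3 than in the primary samples.

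Of the readers, Mbd2 was called higher in primary cells. It had log2 levels of 1.72, 1.90 and 1.75 in PaS, OP and TTF cells, above every clone (0.10 to 1.67), a log2 difference of 1.02 (SE 0.16, adjusted p = 5.51e-06). Primary cells and clones did not overlap for Mbd2 and Dnmt3b, as for 20.7% of all probes. Mbd3 was at 2.68, 2.72 and 2.62, inside the range of the clones (1.67 to 3.05), with a log2 difference of 0.46 that was not called (95% interval 0.01 to 0.90, adjusted p = 0.0712), and was called in 4 of the 35 fits that left out 1 array. Each of the 6 calls remained when any of the 35 arrays was left out. The 3 primary samples are different cell types and formed 1 group in the fit. The spread used was pooled over all groups of the fit, so it comes mostly from differences between clones. These p-values therefore do not measure the spread between cell types alone.

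Against ES cells, 4 of the 7 genes were called, with Dnmt1, Uhrf1 and Dnmt3b lower and Mbd2 higher in clones, where 52.4% of 27622 probes tested were called (28.8% lower, 23.6% higher). Dnmt3b was at 3.73 in EB-3 and 3.83 in RF8, and all 30 clones lay below both lines, with a log2 difference of -2.98 (SE 0.54, adjusted p = 4.89e-05), or 7.88-fold. The same holds for Uhrf1, with log2 levels of 4.91 and 4.32 in ES cells against 1.58 to 3.45 in clones, a log2 difference of -2.16 (SE 0.25, adjusted p = 9.1e-08), or 4.48-fold. The groups do not overlap for either gene, as holds for 24.4% of all probes tested. Mbd2 was the reverse, at -0.30 in EB-3 and -0.86 in RF8 and higher in every clone, by a log2 difference of 1.35 (SE 0.20, adjusted p = 4.12e-06), or 2.55-fold. For Dnmt3b the clones thus stood between primary and ES cells, with no overlap on either side, and for Mbd2 the order was turned round, with primary cells highest and ES cells lowest.

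**Figure D1:**
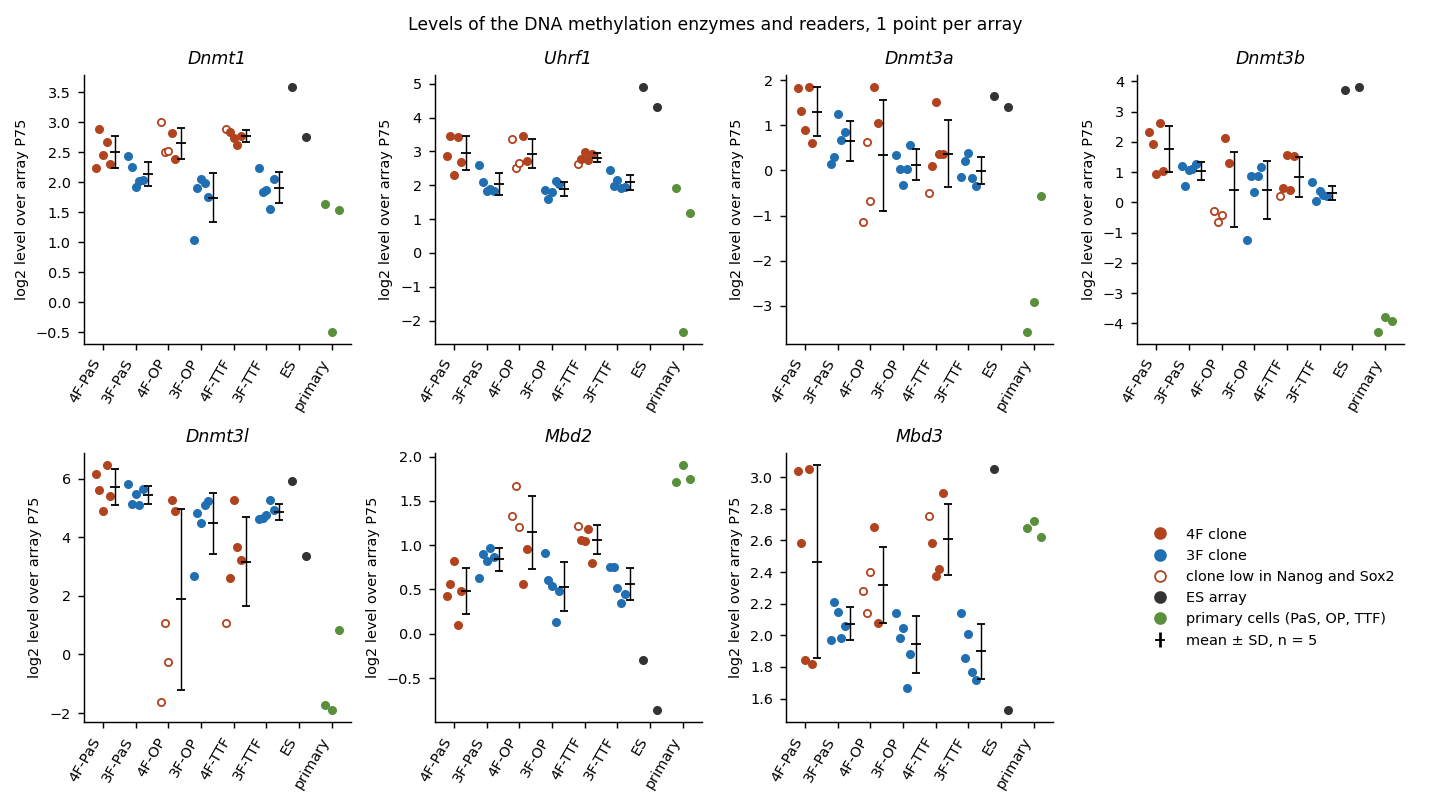
Log2 level of each gene over the 75th percentile of the array, 1 panel per gene, by group. Points are single arrays, bars are the mean ± SD of 5 clones, and open circles are the 4 clones low in Nanog and Sox2. All clones lie below both ES arrays and above the primary arrays in Dnmt3b, and the opposite order is seen in Mbd2, while Dnmt3l of 4F-OP-iPS clones runs from -1.61 to 5.28.

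Dnmt1 was lower in clones than in ES cells by a log2 difference of -0.89 (SE 0.22, adjusted p = 0.00121), but the ES lines differed: EB-3 was at 3.59 and RF8 at 2.76, and 24 of 30 clones lay below both. Without EB-3 the log2 difference was -0.47 and no longer called (adjusted p = 0.196). Dnmt3l was at 5.91 in EB-3 and 3.34 in RF8, so that 7 clones lay below both lines, 2 above both and the other 21 between them, and the log2 difference of -0.38 was not called (95% interval -2.55 to 1.79) and was 0.24 without the 4 clones low in Nanog and Sox2. Mbd3 was at 3.05 in EB-3 and 1.53 in RF8, with 29 clones between them. Where the ES lines differ this much, the direction depends on the line: without EB-3 the log2 difference was 0.90 for Dnmt3l and 0.69 for Mbd3, and without RF8 it was -1.66 and -0.83, of which the last was called (adjusted p = 0.0331). No direction against ES cells can be given for these genes.

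The probes of Dnmt3a did not behave alike. The probe at chr12:3825243-3826024 (build mm7) was at 1.64 and 1.41 in ES cells and at -1.14 to 1.85 in clones, a log2 difference of -1.07 that missed the threshold (adjusted p = 0.0584). Without the 4 clones low in Nanog and Sox2 it was -0.85 and called (adjusted p = 0.0327). A probe further downstream, at chr12:3826602-3826661, was at 1.68 and 2.15 in ES cells and at -2.36 to 1.61 in clones, and there the log2 difference was -2.66 (adjusted p = 0.0010) with no overlap. The last probe, at chr12:3830965-3831024, had a log2 difference of -0.34. The Dnmt3a locus gives rise to more than 1 transcript, and which of them each probe reads was not tested.

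**Figure D2:**
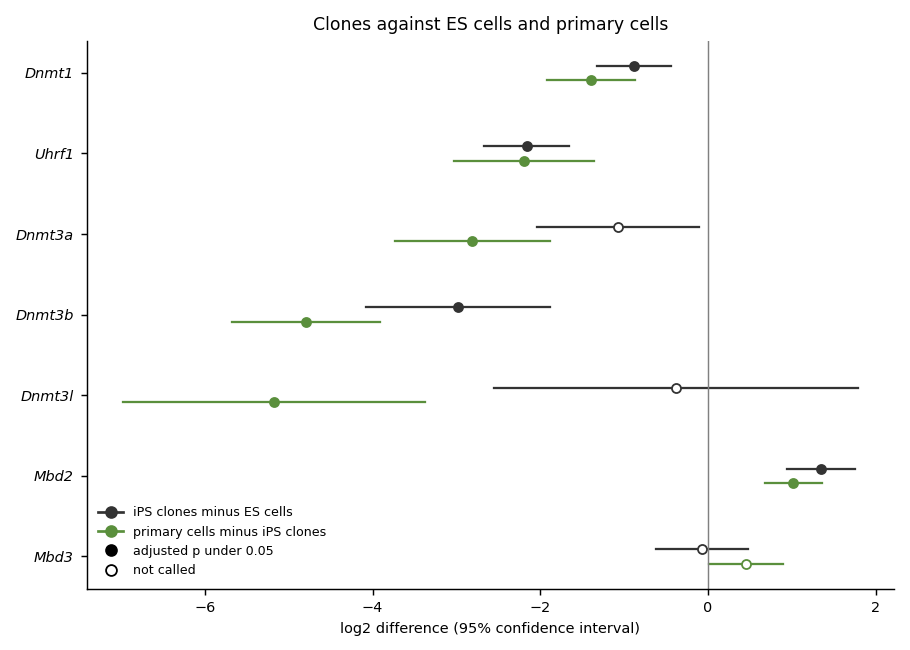
Log2 difference of all iPS clones minus ES cells and of primary cells minus all iPS clones for each gene, in different colours on the same axis, with 95% intervals. Filled points are called at an adjusted p under 0.05. Uhrf1 and Dnmt3b were lower in clones than in ES cells and lower again in primary cells, and Mbd2 lies above 0 in both comparisons.

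The summed level of the 12 fibroblast genes was higher on every clone array than on either ES array, as given above. For Col1a1, a main collagen of fibroblasts, the groups overlapped, with log2 levels of 1.61 to 6.08 in clones and of -4.62 and 3.13 on the ES arrays. Feeder cells, or fibroblast-like cells in the clones, and the scan session move with the comparison against ES cells, and their part in it was not tested.

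Within clones, the clearest pattern was that of the factor set. Dnmt1 and Uhrf1 were lower in 3F- than in 4F-clones of OP and TTF cells. The Dnmt1 levels on the log2 scale were 3.01, 2.50, 2.52, 2.83 and 2.39 in 4F-OP-iPS clones #1 to #5 and 1.04, 1.91, 2.06, 1.98 and 1.75 in 3F-OP-iPS clones. The lowest 4F-clone stood above the highest 3F-clone, and the log2 difference was -0.90 (SE 0.19, adjusted p = 0.00509), or 1.87-fold. In TTF-derived clones Dnmt1 was at 2.90, 2.84, 2.75, 2.63 and 2.78 with 4F and at 2.24, 1.84, 1.87, 1.56 and 2.05 with 3F, again without overlap, a log2 difference of -0.87 (SE 0.19, adjusted p = 0.00494), or 1.82-fold. In PaS-derived clones the levels were 2.24, 2.89, 2.45, 2.67 and 2.31 with 4F and 2.45, 2.25, 1.93, 2.03 and 2.04 with 3F. These groups overlapped, and the log2 difference of -0.37 was not called (95% interval -0.76 to 0.01, adjusted p = 0.303).

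Uhrf1 showed the same order. Its log2 levels in 4F-OP-iPS clones were 3.36, 2.52, 2.65, 3.44 and 2.71, and in 3F-OP-iPS clones 1.87, 1.58, 1.80, 2.13 and 2.03, which do not overlap. The log2 difference was -1.05 (SE 0.21, adjusted p = 0.00435), or 2.07-fold, and the other Uhrf1 probe gave -1.11. In TTF-derived clones Uhrf1 was at 2.64, 2.78, 2.98, 2.75 and 2.93 with 4F and at 2.44, 1.97, 2.16, 1.93 and 1.94 with 3F. There was no overlap either, and the log2 difference was -0.73 (SE 0.21, adjusted p = 0.0299), or 1.66-fold. In PaS-derived clones Uhrf1 was at 2.85, 3.45, 2.30, 3.43 and 2.69 with 4F and at 2.60, 2.11, 1.82, 1.89 and 1.83 with 3F, where 4F-PaS-iPS #3 and 3F-PaS-iPS #1 overlap. The log2 difference there, -0.90 (95% interval -1.34 to -0.46, adjusted p = 0.125), was of like size, but it did not pass over all probes. Without 4F-PaS-iPS #3 it was -1.06 and called (adjusted p = 0.015), and without 4F-PaS-iPS #5 it was -0.96 and called (adjusted p = 0.0463).

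In OP-derived clones 3 of the 7 genes were called, all lower with 3F, where 8.1% of all probes were called (3.27% lower). In TTF-derived clones 2 were called, both lower, against 10.1% of all probes (4.36% lower). In PaS-derived clones none was called, against 0.0217% of all probes. Groups without overlap made up 5.0% of all probes in OP-, 18.5% in TTF- and 2.43% in PaS-derived clones.

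Mbd2 was the third gene called in OP-derived clones, with log2 levels of 1.33, 1.67, 1.20, 0.57 and 0.96 with 4F and 0.91, 0.60, 0.54, 0.13 and 0.48 with 3F. The groups overlapped, and the log2 difference was -0.61 (SE 0.17, adjusted p = 0.0291), or 1.53-fold. In TTF-derived clones Mbd2 was at 0.80 to 1.21 with 4F and at 0.35 to 0.75 with 3F, without overlap and with a log2 difference of -0.50 that was not called (adjusted p = 0.0657). In PaS-derived clones the value had the other sign, 0.36 (95% interval 0.00 to 0.71, adjusted p = 0.287). The difference between these effects in PaS- and OP-derived clones was 0.97 on the log2 scale (95% interval 0.47 to 1.47) and was not called (adjusted p = 0.0545), and without the 4 clones it was 0.59 (adjusted p = 0.756). It was called in 9 of the 32 fits that left out 1 array. None of the 7 genes was called in a test of the difference between sources, where 0.691% (PaS against OP), 0.615% (PaS against TTF) and 0.0% (OP against TTF) of all probes were.

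Mbd3 had log2 differences of -0.39, -0.37 and -0.71 in PaS-, OP- and TTF-derived clones, none of them called (lowest adjusted p = 0.0507, in TTF-derived clones, where the groups did not overlap). The de novo genes did not pass in any source. For Dnmt3a the log2 differences were -0.66, -0.21 and -0.38, and for Dnmt3b -0.74, 0.00 and -0.53, in the order PaS, OP and TTF. Dnmt3l had values of either sign, -0.27 in PaS-, 2.59 in OP- (95% interval 0.71 to 4.47, adjusted p = 0.0755) and 1.68 in TTF-derived clones. The values in OP-derived clones rest on the clones low in Nanog and Sox2: without them the log2 differences were -1.31 for both Dnmt3a (adjusted p = 0.153) and Dnmt3b (adjusted p = 0.329) and -0.61 for Dnmt3l (adjusted p = 0.794), none of them called. That of Dnmt3l was called in 3 of the 32 fits that left out 1 array. Among these were the fits without 4F-OP-iPS #4 (3.44, adjusted p = 0.00945) or #5 (3.34, adjusted p = 0.0184), the 4F-OP-iPS clones with the highest Dnmt3l.

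**Figure D3:**
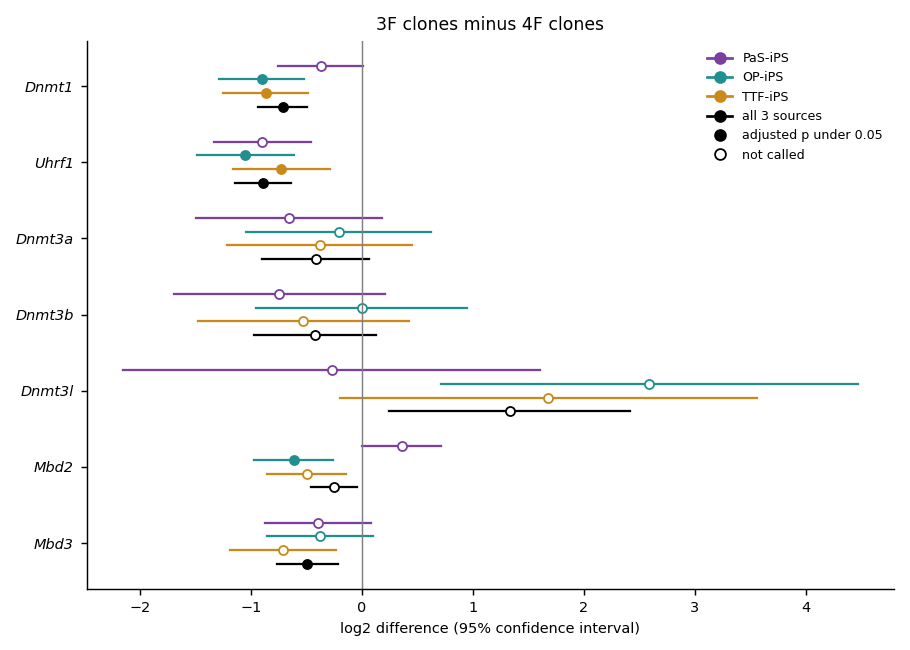
Log2 difference of 3F- minus 4F-clones for each gene, within PaS-, OP- and TTF-derived clones and averaged over the 3 sources, with 95% intervals. Filled points are called at an adjusted p under 0.05. Dnmt1 and Uhrf1 lie below 0 in every source, and Dnmt3l has the widest intervals.

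Averaged over the 3 sources, 3 genes were called lower in 3F-clones, where 21.2% of all probes were called (9.89% lower). This average was added after the values by source had been seen. Uhrf1 had a log2 difference of -0.89 (SE 0.12, adjusted p = 3.2e-05), or 1.86-fold, Dnmt1 one of -0.71 (SE 0.11, adjusted p = 8.07e-05), or 1.64-fold, and Mbd3 one of -0.49 (SE 0.13, adjusted p = 0.0104), or 1.41-fold. Leaving out the 4 clones low in Nanog and Sox2, which leaves 2 4F-OP-iPS clones, ended the calls in OP-derived clones: the log2 differences were -0.86 for Dnmt1 (adjusted p = 0.175), -1.19 for Uhrf1 (adjusted p = 0.0658) and -0.23 for Mbd2 (adjusted p = 0.737). In TTF-derived clones those of Dnmt1 (-0.84, adjusted p = 0.0148) and Uhrf1 (-0.77, adjusted p = 0.0343) were still called. Over all 30 clones the 3F- and 4F-groups overlapped for each gene. Without these 4 clones the average of Dnmt3a (-0.86, adjusted p = 0.00406) and that of Dnmt3b (-0.91, adjusted p = 0.0161) were called lower in 3F-clones as well.

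Slides limit these comparisons, since 3F- and 4F-clones shared only slide 4, with 3 3F-PaS-iPS clones and 1 4F-TTF-iPS clone, whose log2 differences were -0.57 for Dnmt1, -0.76 for Uhrf1 and -0.80 for Mbd3. With slide as a random block the averaged differences of Dnmt1 (adjusted p = 0.0152) and Uhrf1 (adjusted p = 0.0072) were called and that of Mbd3 was not (adjusted p = 0.0621). Within sources only that of Uhrf1 in OP-derived clones was called with that block (adjusted p = 0.0498), and Dnmt1 in OP- (adjusted p = 0.0545) and both genes in TTF-derived clones (adjusted p = 0.207 and 0.408) and Mbd2 in OP-derived clones (adjusted p = 0.132) were not. The difference of Uhrf1 in TTF-derived clones was also not called with slide as a fixed block (-0.44) or after normexp background correction (adjusted p = 0.116), and was called in 25 of the 32 fits that left out 1 array, as was that of Mbd2 in OP-derived clones. Dnmt1 in both sources and Uhrf1 in OP-derived clones were called in all 32. The summed level of the 12 fibroblast genes moved with the factor set in part, with group medians of 7.90 (4F) and 8.66 (3F) in PaS-, 7.55 and 8.67 in OP- and 8.43 and 8.33 in TTF-derived clones. For both PaS sort genes the medians were 2.36 (4F) and 2.12 (3F) in PaS-, 4.50 and 2.23 in OP- and 3.77 and 1.94 in TTF-derived clones. The part of either list in the result was not tested.

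By source cell, the gene with a called difference was Dnmt3l. PaS-derived clones held Dnmt3l at a high and even level, 6.14, 5.61, 4.90, 6.46 and 5.41 on the log2 scale with 4F and 5.81, 5.13, 5.47, 5.10 and 5.65 with 3F. OP-derived clones varied widely, at -1.61, 1.09, -0.25, 5.28 and 4.89 with 4F and at 2.67, 4.84, 4.47, 5.11 and 5.25 with 3F. TTF-derived clones lay between, at 1.09, 2.60, 5.26, 3.66 and 3.21 with 4F and at 4.61, 4.65, 4.75, 5.28 and 4.94 with 3F. The groups overlapped. Dnmt3l was higher in PaS- than in OP-derived clones by a log2 difference of 2.39 (SE 0.65, adjusted p = 0.0371), or 5.25-fold, and was the single gene of the 7 called, where 3.69% of all probes were called (1.82% higher).

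This difference rests on few clones. Without the 4 clones low in Nanog and Sox2, of which 3 are 4F-OP-iPS clones, the log2 difference of Dnmt3l was 0.79 (adjusted p = 0.301), and when single arrays were left out it was called in 21 of 32 fits, lowest without 4F-OP-iPS #1 (1.96, adjusted p = 0.0763). It also missed the threshold after normexp background correction (adjusted p = 0.054), without the filter on dim probes (adjusted p = 0.0522) and with slide as a fixed block (adjusted p = 0.0838). On the slides that held clones of both sources the log2 differences were 2.30, 5.41 and 1.62. These values rest on the same clones in part. The OP-derived clones behind 5.41 were 4F-OP-iPS #1 and #2, and those behind 2.30 included #3, all low in Nanog and Sox2. Those behind 1.62 included 3F-OP-iPS #1, the 3F-OP-iPS clone with the lowest Dnmt3l. Dnmt3b, with a PaS minus OP log2 difference of 0.99 (95% interval 0.32 to 1.66, adjusted p = 0.0797), and Dnmt3a, with 0.74 (95% interval 0.15 to 1.33, adjusted p = 0.133), had values of the same sign and were not called. Without the 4 clones they were 0.34 for Dnmt3b (adjusted p = 0.623) and 0.19 for Dnmt3a (adjusted p = 0.731). For Dnmt1, Uhrf1, Mbd2 and Mbd3 the log2 differences between PaS- and OP-derived clones were -0.18 to 0.14. Between PaS- and TTF-derived clones none of the 7 genes was called, against 1.3% of all probes, with log2 differences of 1.56 for Dnmt3l, 0.83 for Dnmt3b and 0.79 for Dnmt3a. Between OP- and TTF-derived clones none was called either, against 0.029% of all probes, and the log2 difference of Dnmt3l was -0.83 with all clones and 0.51 without the 4.

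By group mean, Dnmt3l ran from 5.70 ± 0.61 (SD, n = 5) in 4F-PaS-iPS over 5.43 ± 0.32 in 3F-PaS-iPS, 4.84 ± 0.27 in 3F-TTF-iPS, 4.47 ± 1.05 in 3F-OP-iPS and 3.16 ± 1.52 in 4F-TTF-iPS to 1.88 ± 3.08 in 4F-OP-iPS clones, and neighbours in this order overlapped. Dnmt3b ran from 4F-PaS-iPS (1.78 ± 0.76) over 3F-PaS-iPS (1.03 ± 0.29), 4F-TTF-iPS (0.84 ± 0.65), 4F-OP-iPS (0.42 ± 1.24) and 3F-OP-iPS (0.41 ± 0.97) to 3F-TTF-iPS (0.31 ± 0.23), also with overlap between neighbours. In Dnmt3a, by its brightest probe, the 4F-PaS-iPS clones stood highest too (1.30 ± 0.55), and 3F-TTF-iPS clones lowest (-0.01 ± 0.30). The lowest group depended on the probe. It was 3F-OP-iPS on that at chr12:3826602-3826661 and 4F-TTF-iPS on that at chr12:3830965-3831024, with 4F-PaS-iPS highest on both. For Dnmt1 and Uhrf1 the group means of 4F-clones (2.51 to 2.78 and 2.82 to 2.95) were all above those of 3F-clones (1.75 to 2.14 and 1.88 to 2.09).

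Dnmt3l also had the widest spread of the 7 genes, with an SD of 1.92 over the 30 clones and a 269-fold range. The range was 104-fold without 4F-OP-iPS #1, and without the 4 clones low in Nanog and Sox2 it was 14.5-fold with an SD of 0.940. Among 20290 probes measured in all clones, with a median SD of 0.386, the SD over 30 clones was at the 99.7th percentile. That of Dnmt3b was 0.875 (91.3rd percentile), and those of the Dnmt3a probes were 0.754 (87.2nd), 1.05 (the probe at chr12:3826602-3826661) and 0.420 (56.4th), so that the order of Dnmt3a and Dnmt3b depends on the probe. Without the 4 clones the SD of that Dnmt3a probe was 0.995, above that of Dnmt3l. Uhrf1 (0.550), Dnmt1 (0.458), Mbd3 (0.386) and Mbd2 (0.354) varied less. The 4 clones low in Nanog and Sox2 had the lowest Dnmt3l levels of all, -1.61, 1.09 and -0.25 in 4F-OP-iPS #1 to #3 and 1.09 in 4F-TTF-iPS #1, against 2.60 in the next lowest clone. They were not the lowest in Dnmt3b, where 3F-OP-iPS #1 stood at -1.24 and the next of the other clones at 0.05. The 4 clones were at -0.30, -0.64, -0.43 and 0.21. In Mbd2 they were high, at 1.33, 1.67, 1.20 and 1.21, and Dnmt1 in them was 3.01, 2.50, 2.52 and 2.90, inside the range of the other 4F-clones or just above it.

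**Figure D4:**
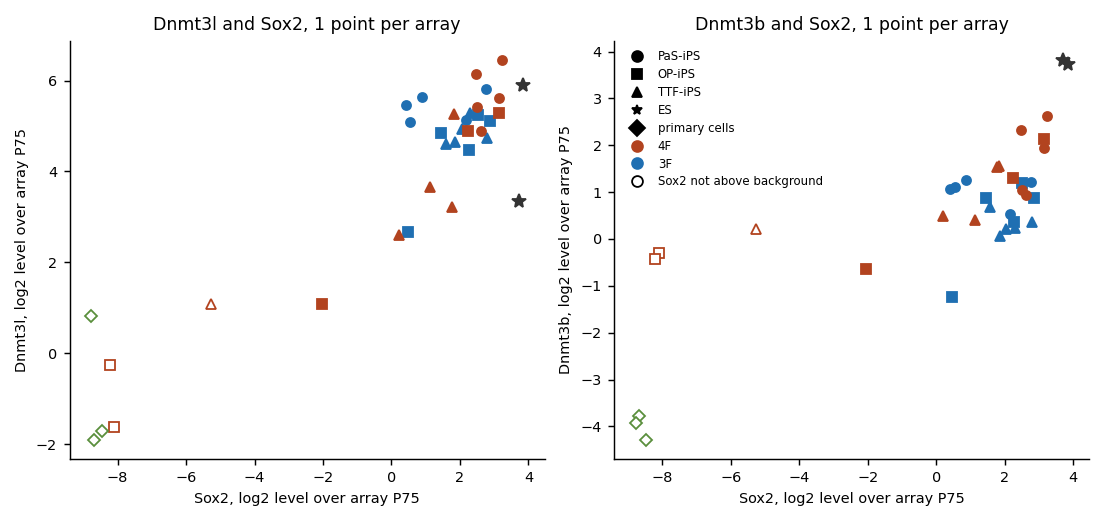
Log2 level of Dnmt3l (left) and Dnmt3b (right) on each array against the log2 level of Sox2 on the same array. Open symbols mark arrays where Sox2 was not above background. Clones low in Sox2 lie at Dnmt3l levels of -1.61 to 1.09. Dnmt3b of the same clones lies within the range of the others, for 4F-OP-iPS #1 to #3 only through 3F-OP-iPS #1 (-1.24). In Dnmt3b the ES cells stand apart at 3.73 and 3.83.

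Across the 30 clones, levels of the maintenance pair ran together, with a Pearson r of 0.826 between Dnmt1 and Uhrf1 (0.820 without the 4 clones). Dnmt3a and Dnmt3b had an r of 0.745 (0.752 without them), Dnmt3b and Dnmt3l one of 0.684 (0.646), and Dnmt3l and Mbd2 one of -0.732 (-0.535). Other pairs moved more: for Dnmt1 and Dnmt3b r was 0.346 over all clones and 0.669 without the 4. These values are descriptions over clones that share factor sets, sources and slides. The probes most like Dnmt3l were those of Cbx7 (r = 0.968), a Polycomb gene of pluripotent cells, Zfp42 (Rex1, r = 0.962) and Dppa5 (r = 0.953), both markers of ES cells, and these values were 0.876, 0.886 and 0.825 without the 4 clones. Those most like Dnmt1 were Dtymk (thymidylate kinase, r = 0.894), Cct3 (a chaperonin subunit, r = 0.868) and Nutf2 (nuclear import, r = 0.866). Uhrf1 was most like Set (a histone chaperone, r = 0.961), a transcript without a gene name and Hnrpa1 (an RNA-binding protein, r = 0.942). Dnmt3b was most like Rpe (pentose phosphate pathway, r = 0.908), Gabpa and Tex10, Dnmt3a like Cep135, Pbef1 and Rest (r = 0.790 to 0.811), Mbd2 like Cnot6, Zfp68 and 1500003O03Rik (r = 0.903 to 0.925), and Mbd3 like a transcript without a gene name, Eef1d and Cdk4 (r = 0.932 to 0.934). The first gene stayed the same with ranks and without the 4 clones for Dnmt3b (Rpe) and Mbd2 (Cnot6). For the other 5 it changed under at least 1 of these: with ranks it was Bms1l for Dnmt1, Hnrpa1 for Uhrf1, 1110033J19Rik for Dnmt3l and Cfl1 for Mbd3, and without the 4 clones it was AU014645 for Dnmt1, Hnrpa1 for Uhrf1, Zfp42 for Dnmt3l, Wdr4 for Mbd3 and Hk2 for Dnmt3a.

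Other genes of the pathway were examined as a list of 38, with the partners of Dnmt1 and Uhrf1, NuRD subunits, further methyl-CpG readers, the Tet dioxygenases, H3K9 methylation partners and enzymes of the methyl donor. Against ES cells 22 of the 38 were lower in clones and 6 higher (median log2 difference -0.60, against -0.11 over all probes), where 28.8% of all probes were lower and 23.6% higher. The lowest log2 differences were those of Hells (-2.38), a chromatin remodeller needed for normal DNA methylation, Hdac1 (-2.20), a deacetylase of NuRD, and Tet2 (-1.90), which oxidises methylcytosine. The highest log2 differences were those of Zbtb4 (2.82) and Zbtb38 (1.36), zinc finger readers of methylated DNA, and Suv39h1 (1.57), an H3K9 methyltransferase. Of 11 NuRD partners 7 were lower and 1 higher, and of 6 other readers 1 was lower and 3 higher.

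In primary cells 18 of the 38 were lower than in clones and 6 higher (median log2 difference -0.53, against -0.14 over all probes), where 34.0% of all probes were lower and 25.1% higher. Among genes above background on every primary array, Zfp57 (-4.81), which protects methylation marks in the early embryo, and Tet1 (-2.96), the dioxygenase of ES cells, had the lowest log2 differences, and Zbtb4 (1.61) and Chd3 (1.16), a NuRD remodeller, the highest. Dppa3, another protector of these marks, was called lower as well, but it was above background on only 1 of the 3 primary arrays (TTF), and the size of its log2 difference (-7.65, or -4.08 with normexp) depends on signals below background. Of the 6 other readers 4 were higher in primary cells and 1 was lower.

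Between 3F- and 4F-clones fewer genes of the list were called. In OP-derived clones 4 were lower with 3F by their log2 differences, namely Cbx5 (HP1 alpha, -0.89), Ahcy (S-adenosylhomocysteine hydrolase, -0.66), Pcna (the replication clamp, -0.64) and Mta1 (a NuRD subunit, -0.59), and Mat2a, which makes the methyl donor, was higher (0.82), against 3.27% of all probes lower and 8.1% called. None of the list was called in these clones without the 4 clones low in Nanog and Sox2, or with normexp. Mat2a was also the single gene of the list called in a test of the difference between sources, PaS against OP (-1.23, SE 0.30, adjusted p = 0.0484), against 0.691% of all probes. That call was lost with normexp (adjusted p = 0.0984), without the filter on dim probes (0.0665), with slide as a fixed (0.284) or random block (0.0528), with the replicate block (0.0527) and without the 4 clones (0.437). In TTF-derived clones 4 were lower with 3F, with log2 differences of -0.88 for Chd3, -0.82 for Cbx5, -0.59 for Ahcy and -0.53 for Pcna, against 4.36% of all probes lower, and 3 were lower without the 4 clones and 1 with normexp. In PaS-derived clones none was called. The median log2 differences of the list were -0.23 in OP- and -0.17 in TTF-derived clones, against 0.02 and 0.04 over all probes. Averaged over sources 12 were lower on the log2 scale (10 without the 4 clones, 5 with normexp), against 9.89% of all probes, with Cbx5 (-0.72), Tet2 (-0.63) and Ahcy (-0.58) lowest, and Dppa3 was higher (2.37, adjusted p = 0.0495). Dppa3 was above background in 12 of 15 4F-clones, so the size of this difference depends on signals below background. It was 1.43 and not called with normexp (adjusted p = 0.0646), not called without the filter on dim probes (adjusted p = 0.067), and 0.35 without the 4 clones low in Nanog and Sox2 (adjusted p = 0.619). With slide as a random block 3 of the list were lower and none higher in the average, and none was called within a source. By source cell, Rbbp4, a histone-binding NuRD subunit, was higher in PaS- than in TTF-derived clones (log2 difference 0.41) and was the single gene of the list called in any of the 3 comparisons, against 1.3% of all probes in this one. It was not called with normexp (adjusted p = 0.373), quantile normalization (0.112), the other 75th percentile (0.0638) or slide as a random block (0.166).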

How the data were processed

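Per the labels and methods, RNA was labelled with Cy3 and hybridized to Agilent mouse arrays. The deposited scanner files hold each spot's intensity after the authors' Agilent Feature Extraction had subtracted the background, with no scaling between arrays. An alternative was the log2 table the authors made in GeneSpring GX, with each probe centred on its median. Groups were taken from the labels.

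Spots were averaged by probe after control spots and 54 to 152 outlier spots per array were left out, and log2 intensity minus the array's 75th percentile was computed. Differences were estimated with limma 3.58.1 (lmFit and eBayes) in R 4.3.3. The fit of clones and ES cells had 7 groups and 32 arrays, and that with primary cells, pooled as 1 group, had 8 groups and 35 arrays. A probe entered a fit if at least 1 group had it well above background on all its arrays (27622 and 28300 probes). The second Mbd2 probe was above background on all arrays of 3F-PaS-iPS clones and of primary cells but of no other group, and serves as an alternative only. Intervals are at 95%. The fit was tested on simulated data. Python 3.11.15 (pandas 2.3.3, numpy 2.4.6, scipy 1.17.1) was used for the rest. Precision is limited by how many arrays there are.

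The 7 genes, the list of 38 pathway genes, the marker lists and the alternatives were chosen with earlier results of these data known, and the promoter letters after the values were seen. All 7 genes are reported, with the 3 pathway genes of largest change per direction in each comparison (all where 4 or fewer were called) and the 3 genes most like each by Pearson correlation over clones. For 1 pathway gene the values are not reported here. Pathway genes were matched by the array's names or RefSeq synonyms. Alternatives were normexp (offset 50), quantile normalization, the authors' table, another 75th percentile, no filter or a stricter filter on dim probes, a 2-fold minimum, slide or clone number as a block, other probes, each array left out in turn, and 4 clones left out together. Exact permutation tests of 3F against 4F within each source and rank correlations were further alternatives. The clone numbers were checked and did not pair the samples, since deviations from the group means correlated over 0.1 in 18 of 75 same-number pairs (median 0.00186). Teratoma, methylation and RT-PCR data were not analysed here.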

Additional observations from a re-analysis of the deposited data

Results flagged for a closer look

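Of 42 groups of 5 clones examined for a single value far from the others, 1 stood out. The log2 level of Dnmt3b in 3F-PaS-iPS #2 was 0.53, while the nearest of the other 3F-PaS-iPS clones was at 1.06, and the gap was 0.719 of the range of the group, over the critical ratio of 0.71. Chance gives about 1 such value in 20 groups.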

How the results depend on the processing

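Over 62 results of single genes and 2413 values under alternatives, 2277 kept direction and side of the threshold, 62 newly passed it, 52 no longer passed it and 22 changed sign. The 62 results are differences and, for each of the 7 genes, the correlation with the gene most like it. A correlation was judged by sign alone. The alternatives include exact permutation tests of 3F against 4F within each source. These were judged at an unadjusted p under 0.05, so some newly passed values rest on a laxer threshold. The number of the 7 genes called between PaS- and OP-derived clones, 1 in the report, was 0 with normexp, without the filter, with slide as a fixed block and without the 4 clones low in Nanog and Sox2. For 3F against 4F it was 1 of 3 in OP-derived clones at 2-fold or with slide as a random block (Uhrf1) and 0 without the 4 clones, 1 of 2 in TTF-derived clones with normexp (Dnmt1) and 0 at 2-fold or with slide as either block, and in the average over sources 0 at 2-fold and 5 without the 4 clones, in place of 3. When arrays were left out in turn, the counts ran from 0 to 3 (PaS against OP), 0 to 1, 2 to 4 and 1 to 4 (3F against 4F in PaS-, OP- and TTF-derived clones), 3 to 5 (average), 3 to 5 (ES), 6 to 7 (primary) and 0 to 2 (difference between sources). The cause of these changes was not tested.

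Clone number as a replicate block, although the numbers pair no samples, brought the count of the difference between sources from 0 to 1 (Mbd2, 0.97, adjusted p = 0.043). It also called Mbd3 for 3F against 4F in TTF-derived clones (adjusted p = 0.0487) and Dnmt3a against ES cells (-1.27, adjusted p = 0.0381).

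Signs changed for small or uneven differences. Without the 4 clones they did for Mbd2 between PaS and OP (0.013) and for Dnmt3l between OP and TTF (0.51), 3F and 4F in OP (-0.61) and clones and ES (0.24). The second Mbd2 probe gave 0.48 between PaS and OP, from which no sign is read, since it passed the filter only through 3F-PaS-iPS clones. With another probe signs changed for Dnmt3a between 3F and 4F in OP (0.074), TTF (0.32) and the average (0.13). With slide as a fixed block they did for Mbd3 between PaS and OP (-0.087) and Mbd2 between 3F and 4F in TTF (0.19), and with the other percentile for Dnmt3b between 3F and 4F in OP (0.093). Mbd3 against ES cells was 0.029 with normexp, 0.049 with quantile normalization, 0.024 with the other percentile and 0.018 with the replicate block. With arrays left out, Dnmt3a ran from -0.58 to 0.16 and Dnmt3b from -0.27 to 0.43 between 3F and 4F in OP-derived clones, and against ES cells Dnmt3l ran from -1.66 to 0.90 and Mbd3 from -0.83 to 0.69.

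Over all probes, slide as a random block left 211 calls of 2237 between 3F and 4F in OP-, 7 of 2790 in TTF-derived clones and 1031 of 5855 in the average. Quantile normalization turned the split of higher against lower calls from 1335 and 902 to 971 and 1185 in OP- and from 1587 and 1203 to 1472 and 1739 in TTF-derived clones. It moved the median of all probes for primary cells from -0.14 to 0.04, and normexp moved it from 0.00 to -0.22 for 3F against 4F in PaS-derived clones.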
